A study of Mus musculus with 11 samples.

Results

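The respiratory chain subunit genes are the genes that encode the protein subunits of complexes I to V of the inner mitochondrial membrane. Nuclear genes were chosen by symbol from the gene IDs of the deposited tables: names that begin Nduf followed by a, b, c, s or v and a number, Sdha to Sdhd, names that begin Uqcr or Atp5, and names that begin Cox with a number from 4 to 8. The 13 protein genes of the mitochondrial genome were added. Of 36528 gene IDs, 100 were members, 87 of them nuclear and 13 mitochondrial, and pseudogenes of the same name pattern were left out. By complex, the nuclear members numbered 38 for complex I, 4 for II, 8 for III, 20 for IV and 17 for V, and the mitochondrial members 7 for I, 1 for III, 3 for IV and 2 for V. Ndufa4 and Ndufa4l2 were counted with complex IV, where the Ndufa4 protein is found. Ndufab1, Cyc1 and Atpif1 carry names outside the rule and were not members.

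RNA was sequenced from mouse liver tumour cell lines that carried YAP-S127A (n = 3), YAP-5SA (n = 3, spelled YAP-S5A in the labels) or TAZ-S89A (n = 5). YAP and TAZ are transcriptional coactivators held back by Hippo pathway kinases, and these mutants lack the phosphorylated serine or serines in their names. The labels give no strain, age, promoter or passage, and leave unstated whether replicates are separate tumours, lines or cultures. Every p-value reflects library-to-library spread alone, which may be technical. No line without a mutant was analysed here, and the mutant and the identity of the line cannot be told apart. Library totals ran from 20071144 to 49159713 counts. TAZ-S89A replicates 4 and 5 carry sample IDs of a second number series and had the smallest totals. The counts of members called and most of the values that follow them are given both with all 11 libraries and with the 9 libraries of the first ID series. Replicate numbers here follow accession order, since the labels number none, and they only name a library. Mean CPM of Yap1 was 66.5 in TAZ-S89A against 197 for YAP-S127A and 171 for YAP-5SA, and that of Wwtr1, the TAZ gene, 82.3, 66.4 and 141 in the same order. These counts do not distinguish a mutant transcript from the endogenous one. Of 10 hepatocyte markers, 3 reached a mean of 1 CPM in each YAP group and 2 did so among the TAZ-S89A libraries, and Serpina1a had 0 counts in every library. Their summed CPM ran from 108 to 122 for YAP-S127A, from 730.5 to 816 for YAP-5SA and from 3.21 to 4.93 for TAZ-S89A. In the same order of groups, the summed CPM of the biliary markers ran from 466 to 590.0, from 2719 to 4272 and from 1758 to 3662. That of the macrophage and leukocyte markers ran from 24.3 to 28.8, from 86 to 98 and from 27.8 to 37.3. For the endothelial markers it ran from 9.02 to 11.3, from 1.24 to 1.52 and from 0.377 to 1.14. The summed CPM of 9 stellate cell and fibroblast markers ran from 6449.8 to 6999 in YAP-S127A, from 287 to 385 in YAP-5SA and from 1827 to 3452 in TAZ-S89A. The part of such differences in the results below was not tested.

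Complexes I and II pass electrons from NADH and succinate to coenzyme Q, complex III passes them on to cytochrome c, and complex IV reduces oxygen. Complexes I, III and IV pump protons, and complex V, the ATP synthase, uses the proton gradient to make ATP. Complexes I, III, IV and V are built from subunits of both genomes, whereas every subunit of complex II comes from the nucleus. Mitochondrial genes are transcribed as long polycistronic RNAs that are cut at the tRNAs, so their steady-state levels also depend on processing and stability. Hepatocytes are rich in mitochondria, and several complex IV subunits have tissue-restricted isoforms used mainly in muscle, testis or lung.

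Part of the mitochondrial genome was nearly absent from the counts. The tables count uniquely aligning reads, and 6 of the 13 mitochondrial members stayed under 3 CPM (CPM, read counts scaled to library size with TMM factors) in every library, whereas the other 7 stayed above 500 CPM in every library. The 6 low genes, COX2, ATP8, ATP6, COX3, ND3 and ND4L, are neighbours on the mitochondrial chromosome, from position 7013 to 10173 of GRCm38. GENCODE places pseudogenes with the same sequence on chromosome 1, from 24611535 to 24616197. The sequences below show how close these copies are: a 100-base stretch of COX2 (bases 291 to 390 of the transcript) is identical to its copy Gm28661, a stretch of COX1 (bases 1063 to 1162) differs from its copy Gm29216 at 1 base, and a stretch of the nuclear Ndufs5 differs at 2 bases from BC002163, the GENCODE name at the locus that RefSeq calls Ndufs5-ps. Capitals mark the bases that differ, and the sequences are from GENCODE M21 on GRCm38.
COX2 and Gm28661: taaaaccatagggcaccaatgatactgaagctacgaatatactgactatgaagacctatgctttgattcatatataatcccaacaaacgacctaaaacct
COX1: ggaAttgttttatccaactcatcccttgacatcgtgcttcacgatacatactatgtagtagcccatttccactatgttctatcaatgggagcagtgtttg
Gm29216: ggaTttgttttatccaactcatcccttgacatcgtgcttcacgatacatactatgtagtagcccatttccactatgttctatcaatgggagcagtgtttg
Ndufs5: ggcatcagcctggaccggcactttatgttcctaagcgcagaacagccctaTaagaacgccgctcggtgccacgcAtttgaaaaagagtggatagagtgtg
BC002163: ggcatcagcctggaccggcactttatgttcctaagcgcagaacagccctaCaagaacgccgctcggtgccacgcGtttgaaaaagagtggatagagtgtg

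The share of 50-base windows of each transcript that occur in no other annotated transcript followed this map. It was 0% for COX2, 0.136% for COX3, 0.475% for ATP6, 1.21% for ND4L and 2.01% for ND3. ND4 had 37.8% and COX1 48.9%, while ND1, ND6 and CYTB had 100%. ATP8, at 0.0239 to 0.376 CPM, was as low as its neighbours although no annotated transcript shares its windows; it lies where GENCODE leaves a gap between the copies of COX2 and ATP6. The counts of these 6 genes are not read as transcript levels here, and the mitochondrial levels described below are those of ND1, ND2, ND4, ND5, ND6, COX1 and CYTB. Counts and medians over the 11 mitochondrial members that passed the low-count filter still hold COX2, COX3, ATP6 and ATP8. With all libraries and within the first series, the genes called are therefore named, or the value over the 7 genes is given beside them. Mitochondrial calls under other settings and with 1 library left out are given as counts only and can include COX2, COX3, ATP6 and ATP8. ND6 is encoded on the opposite strand and shares its last bases with ND5, and the strand setting of the counts is not given in the sources used here.

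**Figure D1:**
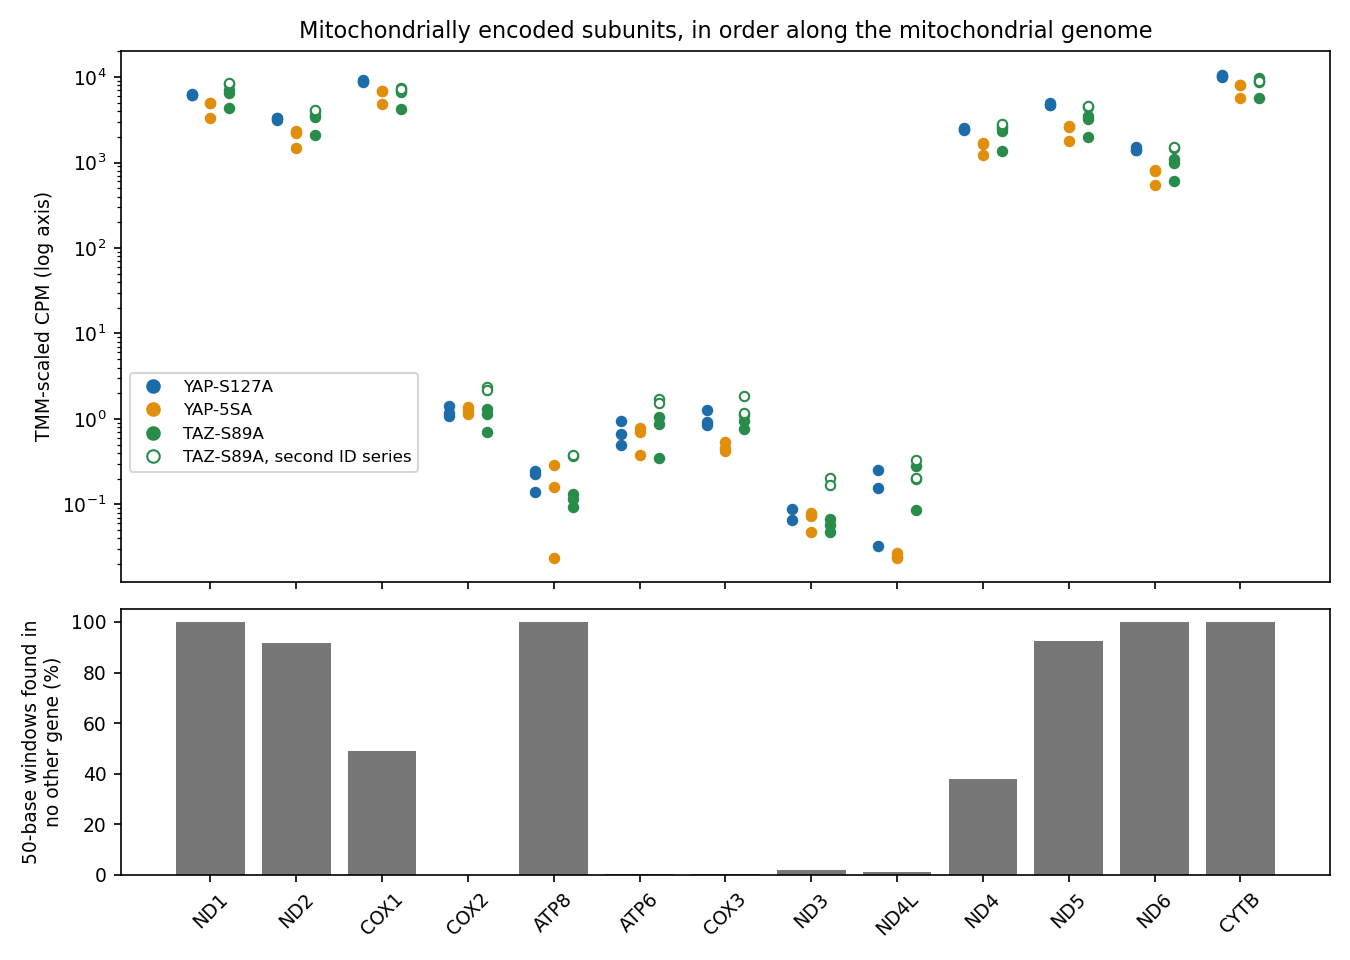
TMM-scaled CPM of the 13 mitochondrial genes in every library, in genome order on a log axis (values of 0 are not drawn), above the share of 50-base windows found in no other annotated transcript. The genes from COX2 to ND4L lie under 3 CPM in all 11 libraries, and the other 7 lie above 500 CPM.

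Some nuclear members with close copies were also low. Atp5g2, a gene for the c subunit of the ATP synthase ring, had 0% unique windows and a mean of 5.41 nRPKM (the authors' length- and depth-scaled read counts, rescaled per library), against 1189 for Atp5g3 and 27.1 for Atp5g1, whose mature proteins are the same. Atp5l, the g subunit, had 15.2% unique windows and 6.73 nRPKM. Cox7c had 51.8% and 4.5 nRPKM, and Ndufs5 58.8% and 1.24 nRPKM. Not all such genes were low: Atp5h had 49.5% unique windows and 52.4 nRPKM, and Uqcrb 56.6% and 29.9 nRPKM. Ndufs5 collected 320 counts over the 11 libraries, and the entry for Ndufs5-ps on chromosome 16 collected 10488. Counts of Atp5g2, Atp5l, Cox7c, Ndufs5, Atp5h, Uqcrb, Ndufb4 and Ndufb4c are uncertain where reads fit both. So are those of Atp5md, Ndufs3 and Atp5pb, with 59.4%, 60.3% and 61.3% unique windows. Counts of members that overlap another gene (34 members, among them Cox4i2, Cox6a2 and Atp5j) are uncertain without a known strand setting.

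Per length, the subunit genes of each complex covered a wide range. Over the 83 nuclear members that passed the low-count filter, the median level over all libraries was 152 nRPKM for complex I, 134 for II, 227 for III, 240.0 for IV and 293 for V. The highest nuclear members were Atp5e at 1900.3 nRPKM, Cox4i1 at 1584, Atp5g3 at 1189 and Uqcrq at 1010.0. Among the catalytic subunits, Ndufs1 lay at 22.1, Sdha at 23.8, Uqcrfs1 at 81.3 and Atp5b at 434 nRPKM. The mitochondrial genes with usable counts ran from 1285 nRPKM for ND4 to 6180.2 for CYTB. ND4 had 37.8% and COX1 48.9% unique windows against 100% for CYTB. Since only uniquely aligning reads were counted, their per-length levels are uncertain beside those of the other mitochondrial genes. Of the 83 nuclear members, 10 averaged under 10 nRPKM, among them Atp5g2, Atp5l, Cox7c, Ndufs5 and the tissue-restricted isoforms.

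Summed over all members, nuclear and mitochondrial transcripts were not in a fixed ratio. The mitochondrial sums hold uniquely aligning reads only and almost none from the 6 low genes. Shares and ratios therefore serve to compare libraries and are not amounts of mitochondrial against nuclear transcript. The 13 mitochondrial members took 3.53% ± 0.139 of counts in YAP-S127A (SD, n = 3), 2.26% ± 0.577 in YAP-5SA (SD, n = 3) and 3.6% ± 1.04 in TAZ-S89A (SD, n = 5). Their summed CPM were 37674, 37615 and 37071 for YAP-S127A, 27288, 18753 and 27311 for YAP-5SA, and 35039.9, 31979, 20235, 36402 and 37934 in TAZ-S89A replicates 1 to 5. Every YAP-5SA library was below every YAP-S127A library, and within their groups YAP-5SA replicate 2 and TAZ-S89A replicate 3 were the lowest. The nuclear sums were 20446, 22501 and 23369 CPM for YAP-S127A, 26495, 28039 and 22516 for YAP-5SA and 22812, 23641, 26926, 10833 and 11593 for TAZ-S89A. Here the YAP groups overlapped, TAZ-S89A replicates 1 to 3 lay in the range of the YAP groups, and replicates 4 and 5 lay far below all others. The ratio of mitochondrial to nuclear CPM was 1.7 ± 0.131 (SD, n = 3) in YAP-S127A and 0.971 ± 0.277 (SD, n = 3) in YAP-5SA. In TAZ-S89A the ratio ran from 0.751 to 1.54 in replicates 1 to 3 and was 3.36 and 3.27 in replicates 4 and 5. In bulk RNA, fewer cells of a type and less RNA per cell cannot be told apart.

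**Figure D2:**
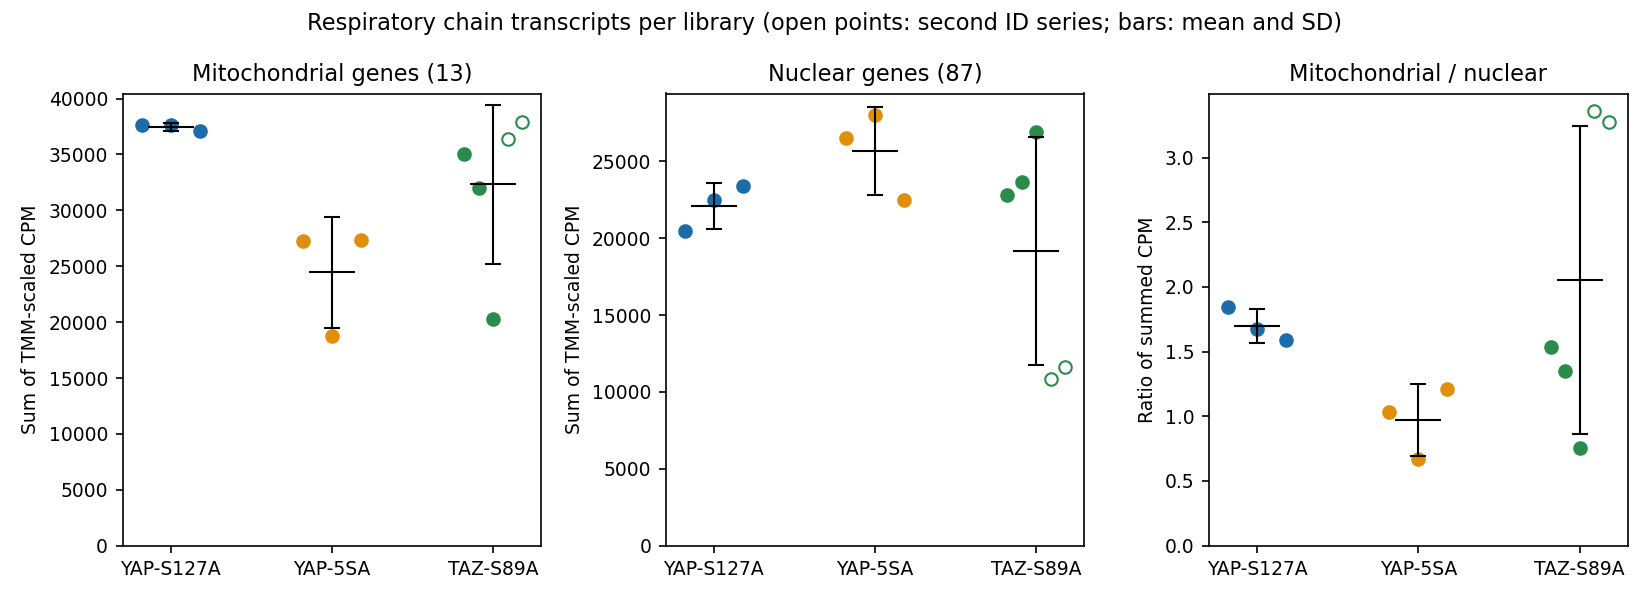
Summed TMM-scaled CPM of the mitochondrial and of the nuclear members, and their ratio, in each library by group; open points are TAZ-S89A replicates 4 and 5, and bars give the mean and SD. The open points are the lowest nuclear sums and the highest ratios of the 11 libraries.

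The split within TAZ-S89A ran through most of the nuclear members. In 70 of 83 tested nuclear members both libraries of the second ID series were below all 3 of the first, and in 1 (Sdha) both were above; over all genes tested, 29.4% were below and 23.9% above without overlap. Of the 11 tested mitochondrial members, 0 were below and 9 above, and of the 7 genes 0 were below and 5 above. The median nuclear member was at 0.417 times its first-series level (log2 ratio -1.26), the median mitochondrial member at 1.54 times (log2 ratio 0.63, 0.42 over the 7 genes), and the median of all genes at 0.949 times. Cox4i1 had 1446, 1628 and 1659.8 CPM in the YAP-S127A libraries, 1690.5, 1660.4 and 1383 CPM in the YAP-5SA libraries, and in TAZ-S89A 1733, 1798 and 1999.8 CPM in replicates 1 to 3 and 597 and 655 CPM in replicates 4 and 5. Cox4i1 is the widely expressed form of a subunit that complex IV needs for assembly, and its first-series libraries lay above every YAP library while replicates 4 and 5 lay below every one. By complex the median log2 ratio was -1.35 for I, -0.73 for II, -1.31 for III, -1.19 for IV and -1.25 for V.

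Transcript length moved with this split. With all tested genes that have a GENCODE length put in 5 equal classes, the median log2 ratio of the second to the first series went from -0.50 in the shortest class (up to 1558 bases) to 0.21 in the longest. Of the 79 nuclear members with a length and a ratio, 66 were in the shortest class, and their median there was -1.29, below that of the class. Of the 11 mitochondrial members, 10 were in the same class, at a median of 0.61, and these include COX2, COX3, ATP6 and ATP8. Over the 7 genes, whatever their class, the median was 0.42. The cytosolic ribosomal protein genes, which are short as well, had a median log2 ratio of -1.06, and the mitochondrial ribosome genes -0.89. The second class held 9 nuclear members, with a median of -0.43 beside -0.14 for the class. Longer nuclear members went both ways: Sdha was at 0.41, Ndufs1 at 0.23 and Atp5a1 at 0.03, whereas Ndufs4 was at -1.35 and Uqcrc2 at -1.11. Atp5g1 was at -0.66, and its length class is uncertain. The GENCODE transcript used for it, of 4715 bases, is longer than its whole RefSeq gene (96072793 to 96075694 on chromosome 11). The part that RNA handling, library preparation or depth has in the split was not tested.

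**Figure D3:**
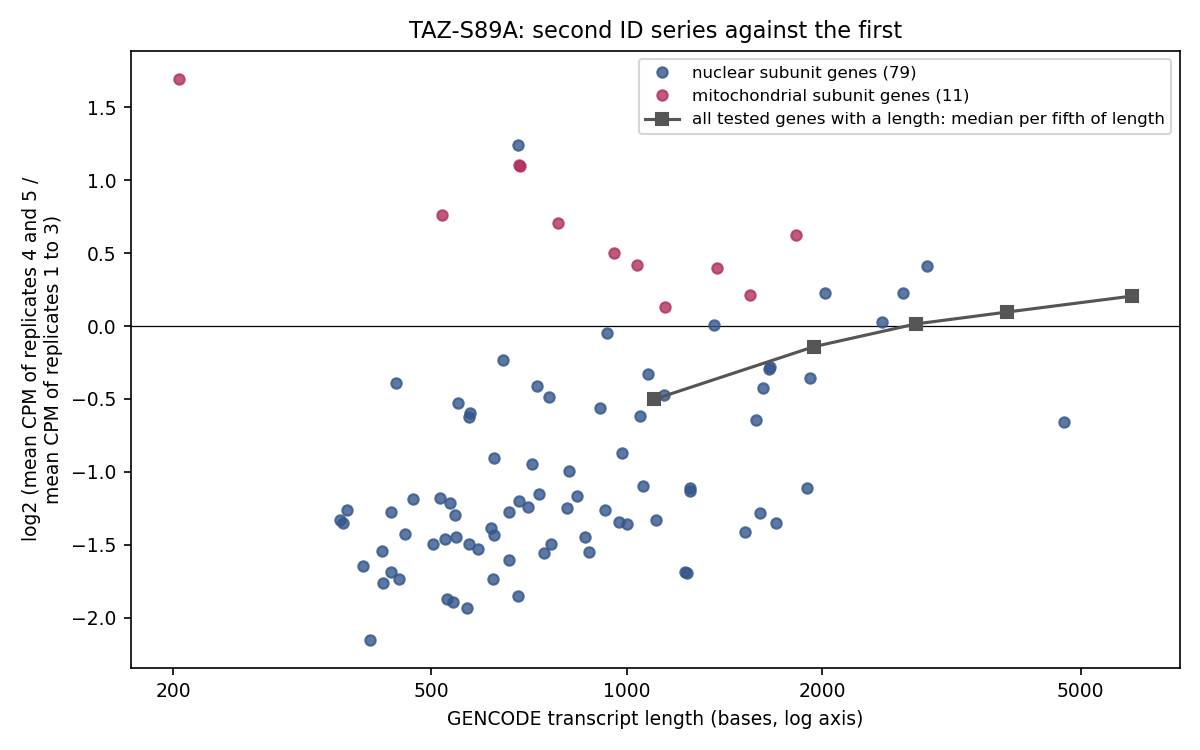
Log2 ratio of mean CPM in TAZ-S89A replicates 4 and 5 to that in replicates 1 to 3 for each subunit gene against transcript length (log axis), with the medians of all tested genes in 5 classes of length. Most nuclear points lie below the line of medians, and all mitochondrial points lie above 0.

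In TAZ-S89A against YAP-S127A, few subunit genes passed the test, and the balance of directions differed without the second ID series. With all libraries, 4 of 83 nuclear members were higher in TAZ-S89A (of all genes tested, 27%) and 13 were lower (of all genes, 30.6%), at an adjusted p under 0.05 in edgeR's quasi-likelihood test. The median log2 fold change was -0.17 for nuclear and -0.06 for mitochondrial members (-0.29 for the 7 genes), beside -0.03 over all genes. Within the first ID series 19 nuclear members were higher (all genes 28.1%) and 15 lower (all genes 31.3%), with a median of 0.13. With all libraries, upper-quartile factors gave 8 higher and 14 lower calls, and TMM factors computed without mitochondrial genes 7 higher and 13 lower. Called in both fits were 3 higher members, Ndufv1, Atp5a1 and Atp5d, and 12 lower members, Ndufa3, Ndufc2, Ndufs4, Ndufb6, Ndufb4c, Uqcrb, Cox4i2, Cox6a2, Cox6b1, Cox6b2, Cox7a2 and Atp5l. Of these, Cox4i2, Cox6a2 and Cox6b2 passed the low-count filter only through the groups where they were high, so their lower calls were partly built into their being tested. Among mitochondrial members edgeR called 0 of 11 with all libraries, also at an unadjusted p under 0.05, limma-voom called 0 and DESeq2 called 1 lower; ND5, ND6 and COX1 were lower within the first series. The count of higher nuclear members was 2 without YAP-S127A replicate 1 or replicate 2, 12 without TAZ-S89A replicate 4 and 10 without replicate 5, and without TAZ-S89A replicate 3 there was 1 mitochondrial call.

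Against YAP-5SA, the lower calls of nuclear members in TAZ-S89A came near the share of all genes, and the higher calls fell short of it. With all libraries 24 of 83 nuclear members were lower (all genes 31%) and 1, Cox7a2l, was higher (all genes 26.9%). The nuclear median was -0.40, the mitochondrial median 0.63 (0.63 for the 7 genes) and that of all genes -0.04, so the medians of the 2 genomes had opposite signs. Within the first series 23 nuclear members were lower (all genes 31.2%) and 12 higher (all genes 29.4%), the nuclear median was -0.10 and the mitochondrial one 0.33 (0.32 for the 7 genes). The lower calls shared by both fits numbered 21, among them Cox4i2 and Cox6b2, which passed the low-count filter only through the groups where they were high. Complex I, with 38 of the 83 tested nuclear members, gave 12 of the 23 lower calls of the first series. The mitochondrial calls, higher in TAZ-S89A in both fits, were ND2 and COX3, and COX3 is one of the 6 genes whose counts are not read as levels. Lower nuclear calls fell to 13 without YAP-5SA replicate 1 or replicate 2, higher ones rose to 5 without TAZ-S89A replicate 4 or 5 and to 2 without YAP-5SA replicate 2, and mitochondrial calls were 1 without TAZ-S89A replicate 1 and 7 without replicate 3.

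Between the YAP mutants, most nuclear calls were higher and all mitochondrial calls lower in YAP-5SA. With all libraries 15 of 83 nuclear members were higher in YAP-5SA than in YAP-S127A (all genes 28.2%) and 2 lower (all genes 27%). The lower ones were Cox7a2l and Cox6a2, and Cox6a2 passed the low-count filter only through the group where it was high. Of the mitochondrial members 3 were lower (ND5, ND6 and COX3, the latter among the 6 low genes) and 0 were higher in edgeR (0 at an unadjusted p under 0.05), DESeq2 or limma-voom. The nuclear median was 0.22 and the mitochondrial median -0.55 (-0.69 for the 7 genes), beside 0.01 over all genes. Within the first series, which leaves both YAP groups whole but removes the spread of TAZ-S89A replicates 4 and 5 from the shared estimate, 25 nuclear members were higher (all genes 30.7%), 11 lower (all genes 32%), and 8 of 10 mitochondrial members were lower, among them all 7 genes. All 15 higher calls and the 5 others of the first fit were called there too. The 3 comparisons share libraries, so their counts are not independent of each other. Without YAP-S127A replicate 1 the higher nuclear calls were 8 and the mitochondrial calls 0, without replicate 2 the nuclear calls were 9 higher and 1 lower, and without replicate 3 there was 1 lower call. Without YAP-5SA replicate 2 there were 8 higher calls and 1 mitochondrial call; without TAZ-S89A replicate 3 there were 5 mitochondrial calls, without replicate 4 there were 23 higher and 6 lower nuclear calls, and without replicate 5 there were 5 lower ones.

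**Figure D4:**
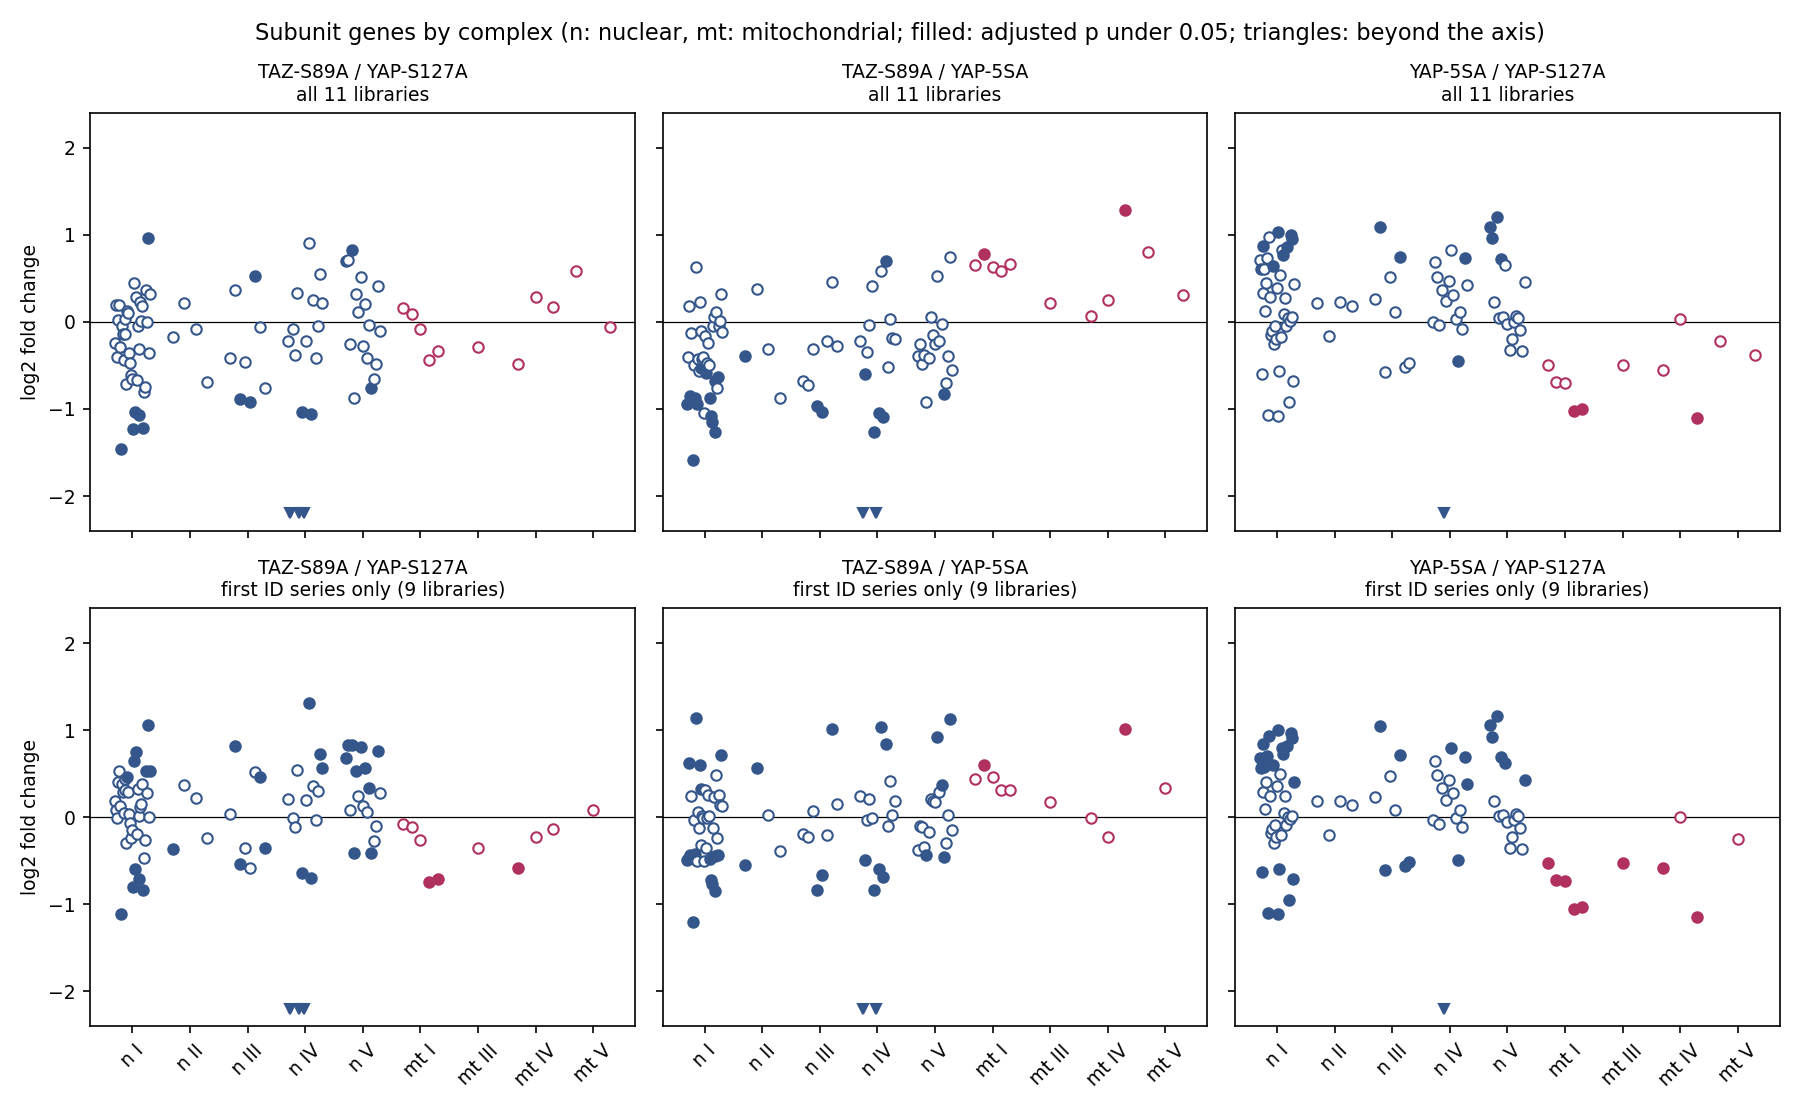
Log2 fold change of each tested subunit gene in the 3 comparisons, by complex and genome, from the fit of all 11 libraries (top) and of the 9 first-series libraries (bottom); filled points have an adjusted p under 0.05 and triangles lie below the axis. In the column for YAP-5SA against YAP-S127A most nuclear points of complex I lie above 0, and in the top row 10 of 11 mitochondrial points lie below 0.

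The mitochondrially encoded subunits of complex I form its membrane arm, where protons are pumped. ND5 had 4961, 4702 and 4749 CPM in the YAP-S127A libraries, 2667, 1781 and 2621 CPM in the YAP-5SA libraries, and in TAZ-S89A 3545, 3212 and 1973 CPM in replicates 1 to 3 and 4413 and 4573 CPM in replicates 4 and 5. The CPM of ND6 were 1538, 1387 and 1403 for YAP-S127A, 827, 539.8 and 798 for YAP-5SA, 1093, 984 and 602 for TAZ-S89A replicates 1 to 3 and 1492 and 1530.4 in replicates 4 and 5. In both genes every YAP-5SA library was below every YAP-S127A library, TAZ-S89A replicates 1 to 3 were below YAP-S127A, and replicate 3 lay among the YAP-5SA libraries. The log2 fold change of YAP-5SA against YAP-S127A was -1.03 ± 0.34 (SE, adjusted p = 0.0193) for ND5 and -0.999 ± 0.33 (SE, adjusted p = 0.0196) for ND6. For ND1, the YAP-S127A libraries gave 6224, 6099 and 6318 CPM, the YAP-5SA libraries 4959.8, 3312 and 4973 CPM, and TAZ-S89A replicates 1 to 5 7051, 6441, 4345, 8237 and 8627 CPM. ND1 was again lower in YAP-5SA than in YAP-S127A without overlap, at -0.49 ± 0.33 (SE, adjusted p = 0.221) on the log2 scale, a difference that passed only within the first series (-0.52 ± 0.21 SE, adjusted p = 0.046). ND2 was at 0.78 ± 0.29 (SE, adjusted p = 0.0326) in TAZ-S89A against YAP-5SA, and ND4 at -0.70 ± 0.30 (SE, adjusted p = 0.06) in YAP-5SA against YAP-S127A.

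CYTB is the only mitochondrial subunit of complex III, and COX1 holds the oxygen-reducing site of complex IV. Libraries of YAP-S127A held 8912, 9201 and 8849 CPM of COX1, those of YAP-5SA 6807, 4788 and 6823 CPM, and those of TAZ-S89A 7352, 6628, 4225, 6865 and 7172 CPM, in replicate order. The CPM of CYTB were 10244, 10595 and 9990.3 for YAP-S127A, 8086, 5643 and 8096 for YAP-5SA, 9813, 8953 and 5631 for TAZ-S89A replicates 1 to 3 and 8686 and 9077 in replicates 4 and 5. The YAP-S127A libraries were the highest for both genes, and the other groups overlapped each other. Against YAP-S127A the log2 fold change of COX1 was -0.55 ± 0.32 (SE, adjusted p = 0.158) in YAP-5SA and -0.48 ± 0.28 (SE, adjusted p = 0.159) in TAZ-S89A, and within the first series -0.58 ± 0.21 (SE, adjusted p = 0.0319) and -0.58 ± 0.21 (SE, adjusted p = 0.0326). For CYTB it was -0.50 ± 0.32 (SE, adjusted p = 0.206) in YAP-5SA, and -0.53 ± 0.22 (SE, adjusted p = 0.049) within the first series. COX3 was called with 16 to 57 counts per YAP library, and for the reason given above its values are not used further.

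Among the core subunits of nuclear complex I, the flavin-bearing Ndufv1, where NADH binds, was higher in YAP-5SA and TAZ-S89A than in YAP-S127A. Ndufv1 had 46, 53.9 and 55.7 CPM in the YAP-S127A libraries, 89.4, 122 and 88.9 CPM in the YAP-5SA libraries, and in TAZ-S89A 82.4, 82.2 and 162 CPM in replicates 1 to 3 and 90.8 and 88.5 CPM in replicates 4 and 5. All YAP-5SA and TAZ-S89A libraries were above every YAP-S127A library, with log2 fold changes of 0.95 ± 0.25 (SE, adjusted p = 0.00506) and 0.96 ± 0.23 (SE, adjusted p = 0.0025), and 1.06 ± 0.25 (SE, adjusted p = 0.00283) for TAZ-S89A within the first series. For Ndufs7, the YAP-S127A libraries gave 74.5, 76.6 and 82.3 CPM, the YAP-5SA libraries 173, 156 and 138 CPM, and TAZ-S89A replicates 1 to 5 89.1, 104, 147, 75.4 and 86.7 CPM. Ndufs7 carries the last iron-sulfur cluster before coenzyme Q; YAP-5SA was above YAP-S127A in every library (1.001 ± 0.22 SE, adjusted p = 0.00143), and TAZ-S89A overlapped both YAP groups. Ndufs3, another subunit of the arm that faces the matrix, was higher in YAP-5SA than in YAP-S127A by 0.86 ± 0.23 (SE, adjusted p = 0.00601) and lower in TAZ-S89A than in YAP-5SA (-0.68 ± 0.20 SE, adjusted p = 0.0104). Its unique windows were 60.3%, so its counts are uncertain where reads fit another gene. The core subunits Ndufs1 and Ndufs8 were called in none of the 3 comparisons with all libraries or within the first series, and Ndufv2, which binds Ndufv1, was called only within the first series, at 0.72 ± 0.16 (SE, adjusted p = 0.00201) in TAZ-S89A against YAP-5SA and -0.71 ± 0.16 (SE, adjusted p = 0.00213) in YAP-5SA against YAP-S127A.

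With all libraries, the lower calls of complex I in TAZ-S89A against YAP-S127A were all in accessory subunits. The CPM of Ndufs4 were 481, 520.1 and 488 for YAP-S127A, 537, 526 and 469 for YAP-5SA, 295, 288 and 261 for TAZ-S89A replicates 1 to 3 and 101 and 119 in replicates 4 and 5. Libraries of YAP-S127A held 109.6, 122 and 122 CPM of Ndufa3, those of YAP-5SA 132, 138 and 116 CPM, and those of TAZ-S89A 52.2, 56.9, 56.4, 23.3 and 25.5 CPM, in replicate order. Ndufs4 stabilises the NADH-oxidising module, and Ndufa3 belongs to the membrane arm. In both genes all TAZ-S89A libraries were below all YAP libraries, and replicates 4 and 5 were lower still. Against YAP-S127A the log2 fold change was -1.22 ± 0.31 (SE, adjusted p = 0.00449) for Ndufs4 and -1.46 ± 0.26 (SE, adjusted p = 0.00034) for Ndufa3, and within the first series -0.83 ± 0.13 (SE, adjusted p = 0.000142) and -1.11 ± 0.12 (SE, adjusted p = 5.96e-06). Ndufc2, also of the membrane arm, had -1.06 ± 0.28 (SE, adjusted p = 0.00533) with all libraries and -0.71 ± 0.14 (SE, adjusted p = 0.000698) within the first series. For Ndufb5, the YAP-S127A libraries gave 134, 137 and 153 CPM, the YAP-5SA libraries 293, 327 and 249 CPM, and TAZ-S89A replicates 1 to 5 196, 224, 251, 139 and 156 CPM. Ndufb5 was higher in every YAP-5SA library than in any YAP-S127A library (1.04 ± 0.23 SE, adjusted p = 0.00148), and TAZ-S89A replicate 3 reached the lowest YAP-5SA value. Of the 38 nuclear complex I genes, 8 higher and 0 lower calls were made with all libraries for YAP-5SA against YAP-S127A (all genes 28.2% and 27%), and 14 higher and 6 lower within the first series (all genes 30.7% and 32%). For TAZ-S89A against YAP-S127A the calls were 1 higher and 5 lower (all genes 27% and 30.6%), and 6 higher and 5 lower within the first series (all genes 28.1% and 31.3%). For TAZ-S89A against YAP-5SA they were 0 higher and 14 lower (all genes 26.9% and 31%), and 5 higher and 12 lower within the first series (all genes 29.4% and 31.2%).

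Complex II had a single call with all libraries. Sdha had 80.3, 87.3 and 81.9 CPM in the YAP-S127A libraries, 90.0, 101 and 100.3 CPM in the YAP-5SA libraries, and in TAZ-S89A 62, 57.3 and 77.2 CPM in replicates 1 to 3 and 88.6 and 85.4 CPM in replicates 4 and 5. Sdha, the flavoprotein that oxidises succinate, was highest in the YAP-5SA libraries, and TAZ-S89A replicates 1 to 3 were below all YAP libraries while replicates 4 and 5 were not. Its log2 fold change in TAZ-S89A against YAP-5SA was -0.39 ± 0.15 (SE, adjusted p = 0.0408), and -0.55 ± 0.13 (SE, adjusted p = 0.00348) within the first series. Sdhb, the iron-sulfur subunit, and the membrane anchors Sdhc and Sdhd were called in none of the comparisons with all libraries, and Sdhb only in TAZ-S89A against YAP-5SA within the first series (0.57 ± 0.21 SE, adjusted p = 0.0344).

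In complex III the Rieske iron-sulfur protein was higher than in YAP-S127A, and the core proteins were lower in TAZ-S89A than in YAP-5SA. The CPM of Uqcrfs1 were 83.4, 89.4 and 109 for YAP-S127A, 145, 199 and 130.2 for YAP-5SA, 107, 119 and 180.1 for TAZ-S89A replicates 1 to 3 and 130.5 and 142 in replicates 4 and 5. Uqcrfs1, the Rieske protein, was above YAP-S127A in every YAP-5SA library (0.75 ± 0.22 SE, adjusted p = 0.00981) and in 4 of 5 TAZ-S89A libraries (0.53 ± 0.20 SE, adjusted p = 0.0332, 0.52 ± 0.22 SE, adjusted p = 0.0566 within the first series). For Uqcrc1, the YAP-S127A libraries gave 139.9, 147 and 169 CPM, the YAP-5SA libraries 195, 283 and 172 CPM, and TAZ-S89A replicates 1 to 5 95.2, 93.4, 170, 96.8 and 98.3 CPM. Uqcrc2 had 450.2, 506 and 634 CPM in the YAP-S127A libraries, 519, 789 and 414 CPM in the YAP-5SA libraries, and in TAZ-S89A 300.0, 328 and 444 CPM in replicates 1 to 3 and 159 and 171 CPM in replicates 4 and 5. Uqcrc1 and Uqcrc2 are core proteins related to mitochondrial processing peptidases. For Uqcrc1, TAZ-S89A replicate 3 lay between the YAP groups and the other 4 libraries lay below both. The log2 fold change in TAZ-S89A against YAP-5SA was -0.97 ± 0.22 (SE, adjusted p = 0.00194) for Uqcrc1 and -1.03 ± 0.32 (SE, adjusted p = 0.0138) for Uqcrc2, and within the first series -0.83 ± 0.25 (SE, adjusted p = 0.0107) and -0.66 ± 0.24 (SE, adjusted p = 0.0307). The small subunit Uqcr11 was higher in YAP-5SA than in YAP-S127A (1.09 ± 0.44 SE, adjusted p = 0.0498), and Uqcrh, the acidic hinge protein, was called only within the first series, where TAZ-S89A was above YAP-S127A (0.46 ± 0.14 SE, adjusted p = 0.0132) and YAP-5SA (1.02 ± 0.14 SE, adjusted p = 4.84e-05).

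The largest fold changes among the tested members were in tissue-restricted isoforms of complex IV. Cox6b2, Cox6a2 and Cox4i2 passed the low-count filter only through the groups where they were high. A large difference from the low groups is therefore partly built into their being tested. Cox6b2 had 2.34, 2.43 and 2.39 CPM in the YAP-S127A libraries, 3.15, 3.54 and 3.19 CPM in the YAP-5SA libraries, and in TAZ-S89A 0.0708, 0 and 0 CPM in replicates 1 to 3 and 0 and 0 CPM in replicates 4 and 5. Cox6b2, the form known from testis, was present at low level in every YAP library and had 3 counts in all 5 TAZ-S89A libraries together, all of them in replicate 1. The ratio of pooled CPM was 135 for YAP-S127A over TAZ-S89A (95% interval 45.7 to 659) and 187 for YAP-5SA over TAZ-S89A (63.6 to 912); the exact binomial intervals cover counting error only. Libraries of YAP-S127A held 1.07, 1.12 and 1.64 CPM of Cox6a2, those of YAP-5SA 0.107, 0.0478 and 0.0726 CPM, and those of TAZ-S89A 0.142, 0.0669, 0, 0.204 and 0.125 CPM, in replicate order. Cox6a2, a heart and muscle form that overlaps Itgad, was highest in all 3 YAP-S127A libraries, with log2 differences of -4.03 ± 0.55 (SE, adjusted p = 2.78e-05) in YAP-5SA and -3.61 ± 0.45 (SE, adjusted p = 1.2e-05) in TAZ-S89A. For Cox4i2, the YAP-S127A libraries gave 0.468, 0.59 and 0.555 CPM, the YAP-5SA libraries 1.18, 0.836 and 0.581 CPM, and TAZ-S89A replicates 1 to 5 0.0236, 0.134, 0.087, 0.122 and 0 CPM. Cox4i2, the lung form, overlaps Bcl2l1; every TAZ-S89A library was below every YAP library (-2.76 ± 0.50 SE, adjusted p = 0.000321 against YAP-S127A and -3.45 ± 0.47 SE, adjusted p = 2.26e-05 against YAP-5SA).

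The muscle form Cox7a1 went the other way in part of TAZ-S89A. The CPM of Cox7a1 were 1.2, 1.38 and 1.58 for YAP-S127A, 1.95, 1.51 and 1.72 for YAP-5SA, 3.85, 3.39 and 3.22 for TAZ-S89A replicates 1 to 3 and 1.18 and 1.04 in replicates 4 and 5. TAZ-S89A replicates 1 to 3 were above, and replicates 4 and 5 below, every YAP library. The log2 fold change against YAP-S127A was 0.90 ± 0.38 (SE, adjusted p = 0.0572) with all libraries and 1.32 ± 0.19 (SE, adjusted p = 7.99e-05) within the first series. Cox7b2, Cox8b, Cox8c and Ndufa4l2 did not pass the low-count filter, and Cox8c had 0 counts in every library. Ndufa4l2, the hypoxia-induced relative of Ndufa4, had 11, 14 and 22 counts in the YAP-S127A libraries and at most 2 in any other library.

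**Figure D5:**
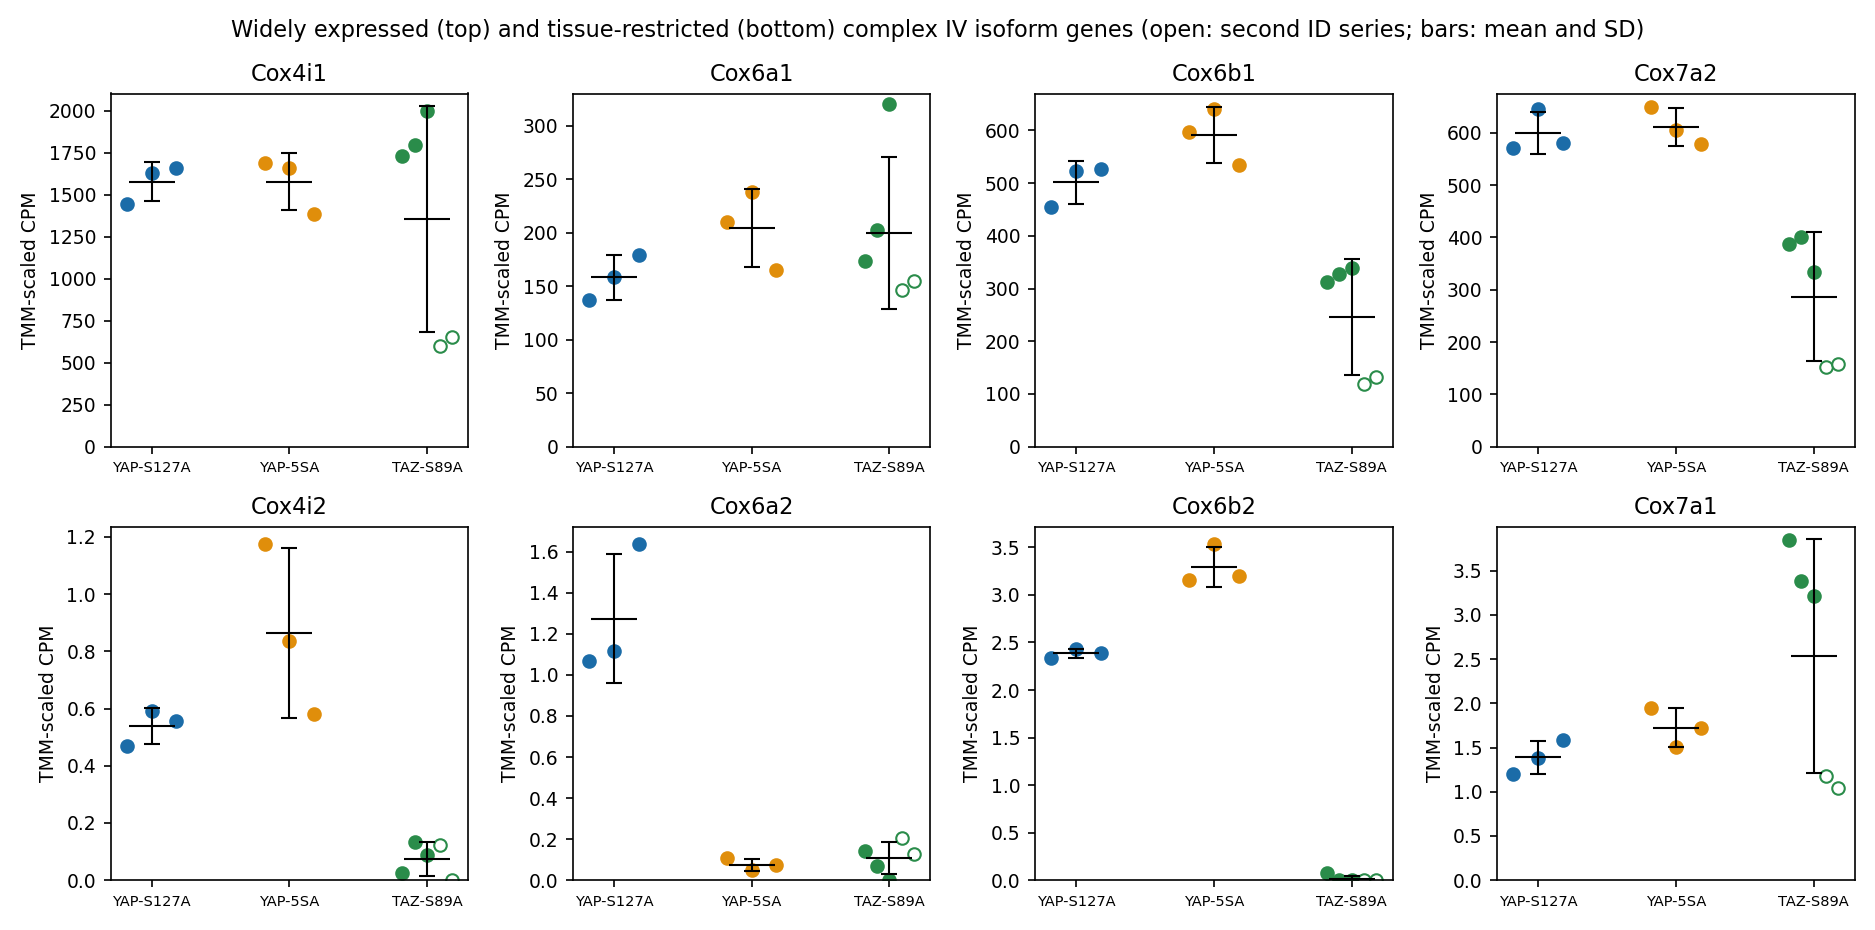
TMM-scaled CPM in each library of 4 widely expressed complex IV isoform genes (top) and their tissue-restricted partners (bottom), each panel on its own axis from 0; open points are TAZ-S89A replicates 4 and 5, and bars give the mean and SD. The lower row stays under 4 CPM, with Cox6b2 and Cox4i2 near 0 in TAZ-S89A and Cox6a2 near 0 outside YAP-S127A.

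Per length, the widely expressed partners were far higher, with 661 nRPKM for Cox6b1 against 2.06 for Cox6b2 and 498 for Cox7a2 against 4.44 for Cox7a1. Libraries of YAP-S127A held 455, 523 and 528 CPM of Cox6b1, those of YAP-5SA 597, 640.3 and 535 CPM, and those of TAZ-S89A 313, 328, 338, 118 and 132 CPM, in replicate order. The CPM of Cox7a2 were 571, 646 and 580.1 for YAP-S127A, 650.1, 605 and 578 for YAP-5SA, 388, 402 and 335 for TAZ-S89A replicates 1 to 3 and 151 and 158 in replicates 4 and 5. Cox6b1 faces the cytochrome c side of the enzyme, and Cox7a2 sits in its membrane part. All TAZ-S89A libraries were below all YAP libraries for both genes, with log2 fold changes against YAP-5SA of -1.27 ± 0.32 (SE, adjusted p = 0.00392) and -1.09 ± 0.31 (SE, adjusted p = 0.00734), and -0.84 ± 0.14 (SE, adjusted p = 0.000179) and -0.69 ± 0.14 (SE, adjusted p = 0.000806) within the first series. For Cox7a2l, the YAP-S127A libraries gave 44.7, 46.4 and 54 CPM, the YAP-5SA libraries 32.6, 40.2 and 33.2 CPM, and TAZ-S89A replicates 1 to 5 54.8, 56.4, 76.9, 49.4 and 50.4 CPM. Cox7a2l, which joins complexes III and IV in supercomplexes, was higher in every TAZ-S89A library than in any YAP-5SA library (0.70 ± 0.16 SE, adjusted p = 0.00165) and lower in YAP-5SA than in YAP-S127A (-0.45 ± 0.17 SE, adjusted p = 0.0385). Cox8a was higher in YAP-5SA than in YAP-S127A (0.73 ± 0.26 SE, adjusted p = 0.0271). Cox4i1, Cox6a1, Cox7b and Ndufa4 were called in none of the 3 comparisons with all libraries; within the first series Ndufa4 was higher than in YAP-S127A in TAZ-S89A (0.57 ± 0.15 SE, adjusted p = 0.00635) and in YAP-5SA (0.39 ± 0.15 SE, adjusted p = 0.0416).

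In complex V the higher calls made with all libraries were in genes of the catalytic head, the central stalk and the c-ring. Atp5a1 had 312, 337 and 384 CPM in the YAP-S127A libraries, 647, 915 and 642 CPM in the YAP-5SA libraries, and in TAZ-S89A 428, 412 and 829 CPM in replicates 1 to 3 and 567 and 569 CPM in replicates 4 and 5. For Atp5b, the YAP-S127A libraries gave 539, 613 and 781 CPM, the YAP-5SA libraries 1062, 1705 and 1005 CPM, and TAZ-S89A replicates 1 to 5 817, 819, 1827, 904 and 901 CPM. The CPM of Atp5d were 115, 128 and 138 for YAP-S127A, 317, 306 and 255 for YAP-5SA, 177, 206 and 302 for TAZ-S89A replicates 1 to 3 and 217 and 225 in replicates 4 and 5. Atp5a1 and Atp5b encode the alpha and beta subunits that form the catalytic ring, and Atp5d the delta subunit of the central stalk. For all 3 genes every YAP-5SA library and every TAZ-S89A library was above every YAP-S127A library. The log2 fold change of YAP-5SA against YAP-S127A was 1.09 ± 0.28 (SE, adjusted p = 0.00448) for Atp5a1, 0.96 ± 0.35 (SE, adjusted p = 0.0304) for Atp5b and 1.20 ± 0.21 (SE, adjusted p = 0.000244) for Atp5d. That of TAZ-S89A against YAP-S127A was 0.70 ± 0.25 (SE, adjusted p = 0.0293), 0.71 ± 0.32 (SE, adjusted p = 0.07) and 0.82 ± 0.19 (SE, adjusted p = 0.00205), and Atp5b passed within the first series (0.83 ± 0.32 SE, adjusted p = 0.0393). The gamma subunit Atp5c1 and the epsilon subunit Atp5e, which also belong to the central stalk, were not called with all libraries, and Atp5e was lower in TAZ-S89A within the first series (-0.41 ± 0.16 SE, adjusted p = 0.0416 against YAP-S127A).

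Libraries of YAP-S127A held 21, 22.4 and 23.7 CPM of Atp5g1, those of YAP-5SA 37.7, 39.3 and 33.9 CPM, and those of TAZ-S89A 27.3, 33, 37.4, 20.4 and 20.9 CPM, in replicate order. Atp5g3 had 757, 784 and 908 CPM in the YAP-S127A libraries, 1324, 1386 and 1151 CPM in the YAP-5SA libraries, and in TAZ-S89A 1190.2, 1512 and 1622 CPM in replicates 1 to 3 and 707 and 787 CPM in replicates 4 and 5. Atp5g1 was higher in YAP-5SA than in YAP-S127A (0.73 ± 0.21 SE, adjusted p = 0.00852), and TAZ-S89A overlapped both groups. Atp5g3, the c-ring gene with most counts, had 0.66 ± 0.32 (SE, adjusted p = 0.0953) in that comparison, and 0.62 ± 0.16 (SE, adjusted p = 0.00535) within the first series. The stalk genes Atp5o and Atp5j, both on chromosome 16, were higher in TAZ-S89A only within the first series, by 0.76 ± 0.20 (SE, adjusted p = 0.00584) and 0.56 ± 0.15 (SE, adjusted p = 0.0057) against YAP-S127A and by 1.13 ± 0.20 (SE, adjusted p = 0.000373) and 0.92 ± 0.15 (SE, adjusted p = 0.000164) against YAP-5SA. Atp5l was lower in TAZ-S89A in both comparisons (-0.76 ± 0.29 SE, adjusted p = 0.0353 and -0.83 ± 0.29 SE, adjusted p = 0.0226), at 1.59 to 5.67 CPM over all libraries.

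Several calls fell on chromosomes where the median over all tested genes was shifted. Of 7 tested members on chromosome 7, 6 were lower in TAZ-S89A than in YAP-S127A (all genes 30.6%). Among them, Cox6a2 and Cox6b2 passed the low-count filter only through the groups where they were high, so their lower calls were partly built in. The median log2 fold change of the 1248 genes tested on this chromosome was -0.70. Relative to that median, Ndufa3 was at -0.75, Ndufc2 at -0.36, Cox6b1 at -0.33, Uqcrc2 at -0.21, Cox6a2 at -2.91 and Cox6b2 at -6.13. Within the first series the first 4 of these were at -0.43, -0.03, 0.05 and 0.10. Cox7a1, the member there that was not called with all libraries, was at 1.61 relative to the median in that fit. Relative to the mean of the chromosome's genes in place of the median, with all libraries, Ndufa3 was at -0.52, Ndufc2 at -0.13, Cox6b1 at -0.09 and Uqcrc2 at 0.02. On chromosome 9, where the median was -0.56 in TAZ-S89A against YAP-5SA, 4 of 5 members were lower, Uqcrc1, Cox5a, Cox7a2 and Atp5l, and relative to the median they were at -0.41, -0.04, -0.53 and -0.27. Chromosome 17 had a median of -0.70 in YAP-5SA against YAP-S127A, and Cox7a2l, lower in that comparison, was at 0.25 relative to it. In TAZ-S89A against YAP-5SA its median was 0.95, and Cox7a2l, the single higher call, was at -0.24 relative to the median and at 0.04 relative to the mean. Within the first series that median was 0.98, and 5 of 6 members, Ndufv2 among them, were higher and 0 lower (all genes 29.4% and 31.2%). Chromosome 4 had 0.59 there, and 2 of 4 members, Sdhb and Uqcrh, were higher and 0 lower. In YAP-5SA against YAP-S127A the first-series median of chromosome 17 was -0.73, with 1 member higher and 4 lower. That of chromosome 4 was -0.57, with 0 higher and 3 lower (all genes 30.7% and 32%). All 5 tested members on chromosome 10 (Atp5b, Atp5d, Ndufa12, Ndufs7 and Uqcr11) were higher in YAP-5SA than in YAP-S127A (all genes 28.2%), where the chromosome's median was 0.22, and they were at 0.65 to 0.98 relative to it. Chromosome copy number was not measured here, and its part in these calls was not tested.

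The complexes need assembly factors, which are not part of the finished enzymes. Counts in this and the next paragraphs are with all libraries unless the first series is named, and the shares of all genes called in each direction are those given above. The pathway genes were not set against the medians of their chromosomes, and the part of chromosome shifts in their calls was not tested. Of 25 tested complex IV assembly factors, 8 higher and 7 lower were called in TAZ-S89A against YAP-S127A, 3 higher and 10 lower against YAP-5SA, and 7 higher and 2 lower in YAP-5SA against YAP-S127A. Within the first series the counts were 11 higher and 7 lower, 5 higher and 10 lower and 10 higher and 3 lower in the same order. Coa4, an assembly factor of the intermembrane space, averaged 9.53 CPM over the TAZ-S89A libraries, 40.5 over YAP-S127A and 50.5 over YAP-5SA, with log2 fold changes of -2.07 ± 0.33 (SE, adjusted p = 0.000104) and -2.39 ± 0.33 (SE, adjusted p = 2.56e-05) in TAZ-S89A. Lrpprc, which stabilises mitochondrial mRNAs, averaged 138, 63.7 and 44.4 CPM in that order of groups and was higher in TAZ-S89A than in YAP-5SA by 1.63 ± 0.18 (SE, adjusted p = 3.71e-06). Among 15 complex I assembly factors the counts were 2 higher and 3 lower, 2 higher and 5 lower and 4 higher and 3 lower for TAZ-S89A against YAP-S127A, TAZ-S89A against YAP-5SA and YAP-5SA against YAP-S127A. There were 4 higher and 2 lower, 7 higher and 4 lower and 5 higher and 5 lower within the first series. Foxred1 was lower in TAZ-S89A than in YAP-S127A (-1.35 ± 0.11 SE, adjusted p = 2.22e-07), and Ndufaf3 was lower than in YAP-5SA (-2.09 ± 0.22 SE, adjusted p = 2.05e-06). For 13 complex II and III factors, in that order, they were 3 higher and 3 lower, 1 higher and 6 lower and 3 higher and 1 lower. They were 4 higher and 3 lower, 3 higher and 5 lower and 6 higher and 1 lower within the first series. Uqcc1 was higher (1.25 ± 0.26 SE, adjusted p = 0.000862) and Sdhaf1 lower (-1.15 ± 0.20 SE, adjusted p = 0.000245) in TAZ-S89A than in YAP-S127A, and Lyrm7, which serves the Rieske protein, was higher in YAP-5SA than in YAP-S127A (1.99 ± 0.17 SE, adjusted p = 3.03e-07). Of 5 ATP synthase factors, 0 higher and 0 lower, 1 higher and 0 lower and 1 higher and 2 lower were called in that order. The counts were 0 higher and 0 lower, 2 higher and 0 lower and 0 higher and 2 lower within the first series. Lower in YAP-5SA than in YAP-S127A were Fmc1 (-1.47 ± 0.45 SE, adjusted p = 0.0135) and Tmem242 (-1.31 ± 0.37 SE, adjusted p = 0.00813).

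Regulators of mitochondrial biogenesis called against YAP-S127A with all libraries were all higher, in YAP-5SA as in TAZ-S89A. Of 12 tested, 8 higher and 0 lower were called in TAZ-S89A, 6 higher and 0 lower in YAP-5SA, and 4 higher and 3 lower in TAZ-S89A against YAP-5SA. Within the first series 11 regulators were tested, without Ppara. Of these, 6 higher and 0 lower were called in TAZ-S89A, 6 higher and 2 lower in YAP-5SA and 2 higher and 3 lower in TAZ-S89A against YAP-5SA. Ppargc1a, a coactivator that drives biogenesis, averaged 2.3 CPM over the TAZ-S89A libraries, 0.541 over YAP-S127A and 4.39 over YAP-5SA (3.001 ± 0.31 SE, adjusted p = 1.71e-06 for YAP-5SA and 2.06 ± 0.29 SE, adjusted p = 3.62e-05 for TAZ-S89A against YAP-S127A). Gabpa, a subunit of the ETS factor GABP, was higher in TAZ-S89A than in YAP-5SA (1.14 ± 0.13 SE, adjusted p = 3.95e-06). Among 26 genes for mitochondrial DNA replication, transcription and RNA processing the counts were 8 higher and 5 lower, 6 higher and 1 lower and 7 higher and 7 lower for TAZ-S89A against YAP-S127A, TAZ-S89A against YAP-5SA, and YAP-5SA against YAP-S127A. They became 9 higher and 5 lower, 10 higher and 1 lower and 7 higher and 10 lower within the first series. Polg, the mitochondrial DNA polymerase, was lower in YAP-5SA than in YAP-S127A (-0.99 ± 0.16 SE, adjusted p = 0.000155), as was Fastk, which binds ND6 RNA (-1.01 ± 0.16 SE, adjusted p = 0.000106). Trmt10c, a part of mitochondrial RNase P, was higher in TAZ-S89A than in YAP-5SA (1.41 ± 0.18 SE, adjusted p = 1.18e-05).

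The citric acid cycle supplies NADH and succinate to the chain. Of 14 citric acid cycle genes, 8 higher and 0 lower were called in YAP-5SA against YAP-S127A, 5 higher and 1 lower in TAZ-S89A against YAP-S127A and 0 higher and 3 lower in TAZ-S89A against YAP-5SA. Within the first series they were 9 higher and 0 lower, 6 higher and 2 lower and 1 higher and 4 lower in that order. Pdk4, a kinase that shuts pyruvate dehydrogenase, averaged 60.9 CPM over the TAZ-S89A libraries, 5.85 over YAP-S127A and 12 over YAP-5SA, and was higher in TAZ-S89A than in YAP-S127A (3.38 ± 0.15 SE, adjusted p = 2.18e-10), while its phosphatase Pdp2 was also higher (1.17 ± 0.11 SE, adjusted p = 1.03e-06). In the list of 12 genes for pyruvate entry the counts were 4 higher and 1 lower, 2 higher and 4 lower and 4 higher and 1 lower in the order of the preceding paragraph. They were 4 higher and 3 lower, 3 higher and 4 lower and 6 higher and 3 lower within the first series. In that order, the 13 coenzyme Q genes gave 3 higher and 4 lower, 1 higher and 4 lower and 4 higher and 1 lower, and 6 higher and 4 lower, 2 higher and 3 lower and 3 higher and 3 lower within the first series, with Coq4 higher in YAP-5SA than in YAP-S127A (1.45 ± 0.18 SE, adjusted p = 1.49e-05). The 24 import genes gave 4 higher and 3 lower, 3 higher and 5 lower and 3 higher and 3 lower. The 4 carrier genes had 1 higher and 0 lower, 0 higher and 0 lower and 2 higher and 0 lower. The 78 mitochondrial ribosome genes gave 12 higher and 14 lower, 6 higher and 17 lower and 17 higher and 6 lower. The 79 cytosolic ribosomal protein genes had 2 higher and 22 lower, 17 higher and 8 lower and 3 higher and 20 lower. Within the first series the import genes gave 7 higher and 5 lower, 9 higher and 4 lower and 4 higher and 6 lower, and the carrier genes 3 higher and 0 lower, 0 higher and 0 lower and 2 higher and 0 lower. The cytosolic ribosomal protein genes gave there 17 higher and 24 lower, 41 higher and 6 lower and 3 higher and 54 lower, and the mitochondrial ribosome genes 23 higher and 14 lower, 16 higher and 13 lower and 23 higher and 10 lower. Of 72 calls of the pathway genes chosen by the rule, 69 were called in the same direction within the first series. Every pathway gene call named above was among them, except those of Ppara.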

How the data were processed

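Read counts per gene and nRPKM values of 11 libraries were used as deposited. Per the file headers, the authors counted uniquely aligning reads per gene, and the nRPKM are RPKM that they rescaled per library by a size factor. The submitters' processing notes name GSNAP and GRCm38. Not given in the sources used here are the version of the aligner, the tool that counted, the release of the annotation and whether strand was used. RPKM values served only for levels between genes. Groups came from the mutation label, and all deposited per-sample columns were used.

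The counts were tested with edgeR 4.0.16 (R 4.3.3): filterByExpr kept 18224 genes and removed 18304, TMM factors were applied, and quasi-likelihood tests on 3 contrasts were fitted to all 11 libraries, with Benjamini-Hochberg adjustment over all genes tested and a threshold of 0.05. CPM are TMM-scaled. Standard errors are on the log2 scale. The same fit was made without the second ID series. Library totals set the counting precision. A further interval was computed for Cox6b2 only, and none for Cox6a2 and Cox4i2, which also had few counts in their low groups. The test was tried on simulated data. Alternatives were other scaling factors, DESeq2 1.42.0, limma-voom (3.58.1), other filters, only the groups compared, the ID series as covariate, a minimum fold change, and each library left out.

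Members, lists and tests were chosen with earlier results of these data known. Named with values were the mitochondrial members, the called nuclear members with the largest fold changes per complex and direction (2 at most, average log2 CPM at least 1), tissue isoform pairs, called core subunits, and up to 2 called genes per pathway list and comparison. Ndufc2, Ndufv2, Sdhb, Uqcrh, Atp5e, Atp5o, Atp5j and Cox5a were added after their values were seen.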

Additional observations from a re-analysis of the deposited data

Results flagged for a closer look

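In the 5 TAZ-S89A libraries, 52 values (levels of named genes and summed levels) were searched for a single library far from the others, and 8 were found. Chance gives about 1 in 20 if values are independent, and genes measured in the same libraries are not. Replicate 3 was the distant library in 7 of the 8. It had 1827 CPM of Atp5b, 303 of Cox8a, 162 of Ndufv1, 76.9 of Cox7a2l and 170.0 of Uqcrc1, each the highest of the 5 libraries, and 4225 CPM of COX1 and 5631 of CYTB, each the lowest. The eighth value was Cox6b2 in replicate 1, at 0.0708 CPM, where the other 4 libraries had 0, and it rests on 3 counts. Without replicate 3, 1 mitochondrial member was called in TAZ-S89A against YAP-S127A and 7 against YAP-5SA.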

How the results depend on the processing

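No paired analysis was possible because the labels give no replicate numbers; those used here follow accession order and pair nothing. In TAZ-S89A against YAP-S127A, the 4 higher nuclear calls became 8 with upper-quartile factors, 7 with TMM factors computed without mitochondrial genes, 8 with DESeq2, 7 without a low-count filter, 24 with the ID series as covariate and 19 without the second ID series, and 2 to 12 with 1 library left out (lower calls 10 to 18). Mitochondrial calls, 0 at first, were 1 with DESeq2, 3 with the covariate, 3 without the second series and 0 to 1 with 1 library left out. In TAZ-S89A against YAP-5SA, the single higher call became 2 with RLE or upper-quartile factors, TMM without mitochondrial genes, DESeq2, no filter or the strict filter, 12 with the covariate or without the second series, and 1 to 5 with 1 library left out (lower calls 13 to 30). Its 2 mitochondrial calls became 6 with DESeq2, 1 with the strict filter or only the groups compared, and 1 to 7 with 1 library left out. In YAP-5SA against YAP-S127A, the 15 higher calls became 28 with only the groups compared, 27 with the covariate, 25 without the second series and 8 to 23 with 1 library left out. The 2 lower calls became 4 with RLE or upper-quartile factors or DESeq2, 1 with the strict filter or a minimum log2 fold change of 0.5, 11 with only the groups compared or without the second series, 12 with the covariate, and 1 to 6 with 1 library left out. The 3 mitochondrial calls became 7 with DESeq2, 8 with only the groups compared, the covariate or without the second series, and 0 to 5 with 1 library left out. The cause of these changes was not tested. With 1 library left out, the mitochondrial share of counts was 3.37% to 4.01% in TAZ-S89A, 2.06% to 2.59% in YAP-5SA and 3.46% to 3.60% in YAP-S127A. The median levels by complex were also computed from TMM-scaled counts per kilobase. The lengths used there were derived from the same counts and nRPKM, so the close result was fixed in advance and is no separate check. With the mean of each chromosome in place of its median, the median of the members relative to their chromosome went from -0.18 to 0.13 in TAZ-S89A against YAP-S127A, a change of sign, from -0.38 to -0.12 against YAP-5SA, and from 0.21 to 0.22 between the YAP mutants. No called value of a named member changed sign under any alternative.

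All 3 groups are mutants with 3 to 5 libraries, and separate tumours or cultures are not recorded. The ID series is nested in TAZ-S89A, so its part in the other groups cannot be estimated. Genes with close copies and genes under about 1 CPM are limited by unique alignment and counting error. Genes in overlap are limited by the unknown strand setting. The mitochondrial genes from COX2 to ND4L are not read as levels, and the cause of their low counts was not tested.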
